A study of Saccharomyces cerevisiae with 4 samples.

Results

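The PRM genes of budding yeast are a set named for pheromone-regulated membrane proteins, and the 10 members described here are the reading frames of PRM1 to PRM8 and PRM10 together with YNL058C, the paralog of PRM5. They are 10 of the 6207 reading frames in the deposited table of array ratios and were picked by reading frame name. The set was proposed with the ratios of PRM5 and other genes of the same contrast already known, so the Congo Red ratios of the members are given as a description, without a test. Both RNA pools on every array came from a wsc1 mutant of strain BY4741 of Saccharomyces cerevisiae grown on YEPD, a rich medium, at 24 °C. The labels do not say what kind of mutation it is. The treated part of each culture received Congo Red, a dye that binds chitin and glucan in the wall, at 30 µg/ml, the untreated part grew on without it, and cells were collected at 4 h. The design text describes 2 cultures with a dye swap for each, hence 4 arrays, with Congo Red RNA in Cy5 on arrays 2 and 4 and in Cy3 on arrays 1 and 3. No strain with an intact WSC1 gene and no cells given pheromone were used here.

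Pheromone binds a receptor on the partner cell and, through a G protein and a MAP kinase cascade, activates the transcription factor Ste12, which drives genes for adhesion, cell fusion and nuclear fusion. Damage to the wall is sensed by proteins such as Wsc1 and Mid2 and is passed through Pkc1 to another MAP kinase, Slt2, which activates the factor Rlm1. PRM5 is known as a gene that responds to both, and is a widely used reporter of Rlm1 activity. PRM5 and YNL058C arose from the whole genome duplication and are called the wall-stress type here, and the other 8 members the pheromone type.

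Each value is the log ratio of Congo Red over untreated, read as log2. The sources used here state neither the log base nor the numerator, so the direction is likely rather than settled. It was set on 21 tested targets of the cell wall integrity pathway, none of them members, of which 19 lay above 0 on all 4 arrays. If arrays 2 and 4 are turned in sign, 0 of these targets lie above 0 on all 4 arrays and 1 lies below 0 on all 4. Across the 3080 reading frames with 4 values, arrays of one dye orientation correlated with a Pearson r of 0.71 (arrays 2 and 4) and 0.64 (arrays 1 and 3), while arrays of opposite orientation correlated between -0.05 and 0.33. Array medians lay between -0.14 and -0.08, and 52.4% to 80.4% of reading frames had a value on an array. No array had a value for WSC1 itself, which leaves the mutation unchecked by its transcript.

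How much could be measured differed between the members. PRM5 and YNL058C had a value in 8 of 8 cells of the table, whereas the 8 pheromone-type members had one in 11 of 32 cells (34.4%). Over all reading frames 64.9% of cells were filled. PRM1, which acts in plasma membrane fusion of mating cells, PRM6, the paralog of the potassium transport gene KCH1, and PRM7 were empty on all 4 arrays. PRM2 and PRM3 had 1 value each, PRM4 had 2, PRM10 had 3 and PRM8 had 4. No source used here says why a cell was left empty, and an empty cell cannot be read as an absent transcript.

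**Figure D1:**
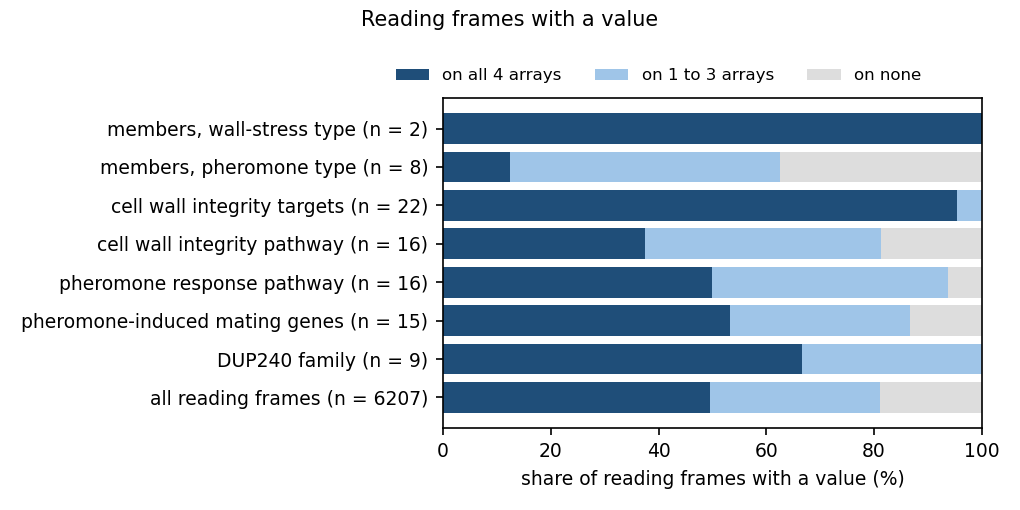
Share of reading frames (horizontal axis, percent) with a value on all 4 arrays, on 1 to 3 arrays or on none, for the members, the related gene lists and all reading frames; n is the number of reading frames in the table. The pheromone-type members have 1 of 8 on all arrays, against 21 of 22 for the cell wall integrity targets and 49.6% of all reading frames.

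The listed genes that pheromone induces, other than the members, had 42 of 60 cells filled (70%), and the components of the pheromone response pathway 47 of 64 (73.4%). Neither mating list was as sparse as the pheromone-type members. The targets of the cell wall integrity pathway had 86 of 88 cells filled. Members and lists were chosen with earlier results of these data known, so their shares of filled cells are no independent comparison. BY4741 is a MATa strain, and its MATa marker genes (STE2, MFA1, MFA2, STE6, BAR1 and AGA2) had 22 of 24 cells filled. The 4 MATalpha markers had 4 of 16. Of these STE3 and MF(ALPHA)1 were empty throughout, SAG1 had 1 value and MF(ALPHA)2 had 3.

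PRM5 (YIL117C), which codes for a protein with a single predicted membrane segment, had the highest ratio of the members. It lay at 3.24 and 3.08 on arrays 2 and 4, with Congo Red in Cy5, and at 3.19 and 3.18 on arrays 1 and 3, with Congo Red in Cy3. The values differed little between arrays and dye orientations, and the lowest of them lay above every value of every other member. Their mean was 3.17 ± 0.07 (SD, n = 4 arrays from 2 cultures), a 9.02-fold ratio if the log base is 2. PRM5 held rank 2 of the 3080 reading frames by mean ratio, after NCW2, and a rank between 1 and 3 on each array. In RNA from a whole culture, more responding cells and more RNA per cell cannot be told apart.

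YNL058C, whose product has no settled role, was also above 0 on every array, as were 7.44% of the 3080 reading frames tested. It lay at 1.60 and 1.30 on arrays 2 and 4, and at 0.90 and 0.72 on arrays 1 and 3. Both arrays with Congo Red in Cy5 were higher than both with Congo Red in Cy3, so the orientations did not overlap. The mean was 1.13 ± 0.40 (SD, n = 4 arrays from 2 cultures), a 2.19-fold ratio if the log base is 2, and its rank was 25 of 3080. The ratio of PRM5 exceeded that of its paralog by 1.64 and 1.78 on arrays 2 and 4 and by 2.29 and 2.46 on arrays 1 and 3. The paralogs thus stood 2.04 ± 0.39 log units apart on average (SD, n = 4 arrays).

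**Figure D2:**
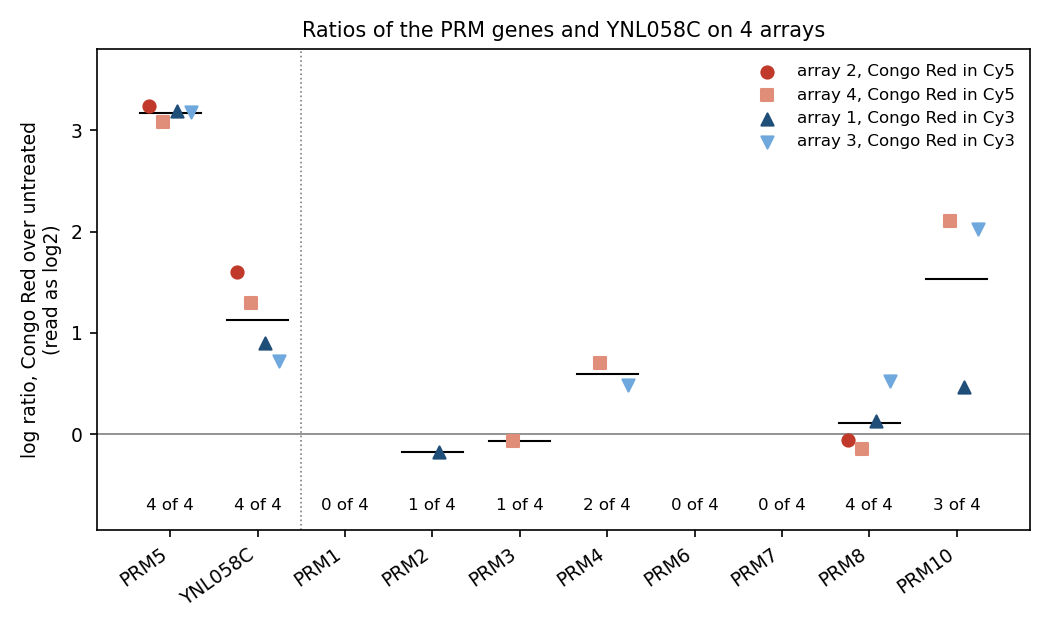
Log ratio of Congo Red over untreated (vertical axis, read as log2) of each member on each array, with arrays with Congo Red in Cy5 in red shades and those with it in Cy3 in blue shades; the horizontal lines are means of the measured arrays and the numbers below give how many of 4 arrays had a value. PRM5 sits between 3.08 and 3.24, YNL058C between 0.72 and 1.60, and PRM10 at 2.03 and 2.11 on arrays 3 and 4 but at 0.46 on array 1.

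The pheromone-type members with values were not alike. PRM10 (YJL108C), a gene for a predicted membrane protein, lay at 2.11 on array 4, at 0.46 on array 1 and at 2.03 on array 3, and was empty on array 2. It ranked 8 of 4991 measured reading frames on array 4 and 11 of 4273 on array 3, but 400 of 3254 on array 1. Arrays 1 and 3 share their dye orientation and so come from different cultures. The mean of 1.53 ± 0.93 (SD, n = 3 arrays) has a spread that covers every value of YNL058C, and on arrays 3 and 4 PRM10 was the higher of the pair.

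The reading frame next to PRM10 on its chromosome, YJL107C, lay at -1.53 and -0.16 on arrays 2 and 4 and at 0.31 and 1.56 on arrays 1 and 3. PRM10 was 0.15 log units higher than its neighbour on array 1 and 0.47 higher on array 3, both with Congo Red in Cy3, but 2.26 higher on array 4, with Congo Red in Cy5. YJL107C was not called for Congo Red, with a mean of 0.05 (adjusted p = 0.933).

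PRM4 (YPL156C), another gene for a predicted membrane protein, lay at 0.70 on array 4 and 0.49 on array 3. On those arrays 97.6% and 90.8% of the measured reading frames had a lower ratio, and both values were below those of YNL058C. PRM3 (YPL192C), needed for fusion of the nuclear envelopes after mating, had a single value of -0.06 on array 4, where 53.1% of reading frames were lower. PRM2 (YIL037C), a gene under Ste12, had a single value of -0.18 on array 1, where 46.3% were lower. Both lay near the middle of their array, with no second array to set against it.

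PRM8 (YGL053W), a member of the DUP240 family of membrane proteins, had values on all arrays. It lay at -0.06 and -0.14 on arrays 2 and 4 and at 0.13 and 0.53 on arrays 1 and 3, with a mean of 0.11 ± 0.30 (SD, n = 4 arrays from 2 cultures). The sign followed the dye orientation. PRM3 and PRM2 rest on 1 array each. By the order of their means the measured members ran from PRM5 through PRM10, YNL058C, PRM4 and PRM8 to PRM3 and PRM2. These means rest on different arrays, and the order holds for the ratios as read here. With arrays 2 and 4 turned, PRM8 would lie at 0.22, PRM5 at 0.012 and YNL058C at -0.32. The values of PRM10 span those of YNL058C, and those of PRM4 and PRM8 overlap. PRM10 was above PRM4 by 1.40 on array 4 and by 1.54 on array 3, the arrays that measured both.

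Limma on culture means called 80 of 3080 reading frames past an adjusted p of 0.05 (2.60%), with 1.53% higher and 1.07% lower under Congo Red. Of the 3 members with 4 values, PRM5 and YNL058C passed in this fit and PRM8 did not, and nothing is read from this count because the members were proposed on the same contrast. YNL058C did not pass after each array was centred on its median, nor in the fit with a dye term without array 2. PRM10, with 3 values, did not enter the fit on culture means. In the fit with a dye term on arrays 1, 3 and 4 its mean was 1.68, with array 4 alone for Congo Red in Cy5. The wall-stress members, averaged, stood above PRM8 by 2.48 and 2.33 on arrays 2 and 4 and by 1.91 and 1.42 on arrays 1 and 3. The mean difference was 2.04 ± 0.48 log units (SD, n = 4 arrays). PRM8 is the sole pheromone-type member in it. With every measured pheromone-type value of an array the difference was 1.72 ± 0.65, and with YNL058C alone against PRM8 it was 1.02 ± 0.67, with the lowest value of 0.19 on array 3. The high ratios of PRM10 on arrays 3 and 4 lay on the wall-stress side of this division.

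The dye term is another contrast than the one on which the members were proposed and was tested for them with limma on single arrays. That fit treats the 4 arrays as independent, although they come from 2 cultures. The dye term was called for 16.0% of the 3080 reading frames and for 0 of the 3 members, of which YNL058C had an unadjusted p below 0.05. PRM5 averaged 3.16 on arrays 2 and 4 and 3.18 on arrays 1 and 3, a difference of -0.02 ± 0.14 (SE, adjusted p = 0.921). YNL058C averaged 1.45 with Congo Red in Cy5 and 0.81 with it in Cy3, a difference of 0.64 ± 0.17 (SE, unadjusted p = 0.0122, adjusted p = 0.0624). PRM8 averaged -0.10 with Congo Red in Cy5 and 0.33 with it in Cy3, a difference of -0.43 ± 0.18 (SE, adjusted p = 0.151).

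**Figure D3:**
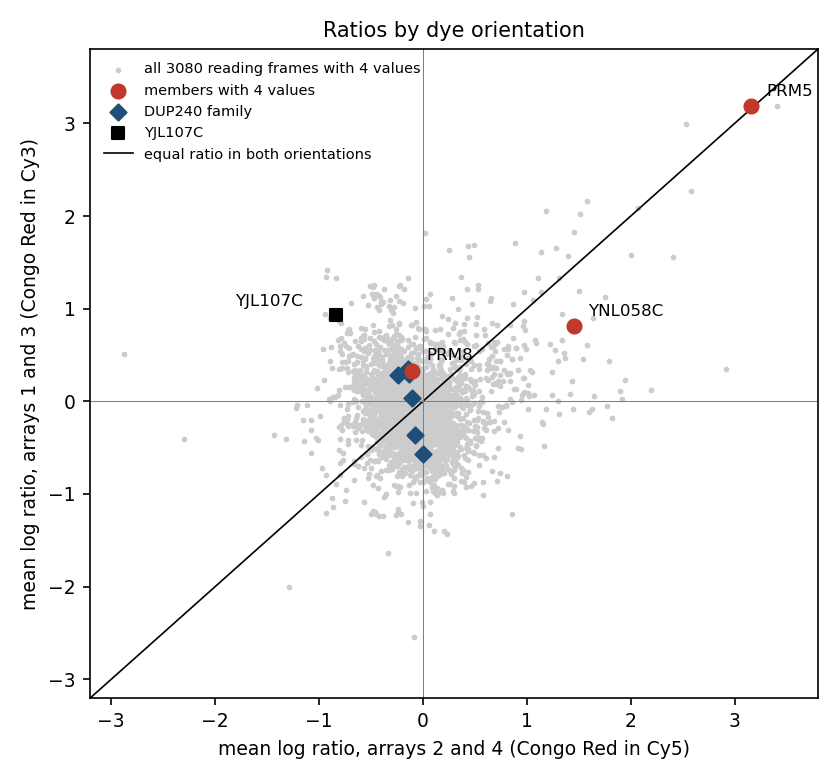
Mean log ratio on arrays 2 and 4, with Congo Red in Cy5 (horizontal axis), against that on arrays 1 and 3, with Congo Red in Cy3 (vertical axis), for the 3080 reading frames with 4 values. PRM5 lies on the line of equal ratios at 3.16 and 3.18, YNL058C below it at 1.45 and 0.81, and PRM8 above it beside 3 of its relatives.

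Some relatives of PRM8 had nearly the same ratios as PRM8, and others did not. PRM9, its closest paralog and not among the members, lay at -0.07 and -0.20 on arrays 2 and 4 and at 0.15 and 0.44 on arrays 1 and 3. The root mean square difference between PRM8 and PRM9 over the 4 arrays was 0.05, and 1 other reading frame of the table lay closer to PRM8. UIP3 and MST28 followed at 0.10 and 0.12, ranks 13 and 22 by likeness to PRM8, whereas the other members of the DUP240 family with 4 values, KTD1, DFP1 and DFP3, ranked 313, 2175 and 2496. Genes of this family are similar in sequence, and whether their probes share signal was not tested, so the ratio of PRM8 may not be its own. Of the 6 relatives with 4 values 0 were called for Congo Red by limma, against 2.60% of all reading frames tested. At an unadjusted p below 0.05, 0 were higher and 0 lower, against 7.79% higher and 18.4% lower. With 6 genes, nothing is read from these counts. The median of the 6 relatives was -0.01, against -0.10 over all reading frames tested. The largest means by size were those of DFP3 at -0.28 and DFP1 at -0.22.

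By likeness to PRM5, measured as the root mean square difference over the 4 arrays, the nearest reading frames were NCW2 at 0.19, CRG1 at 0.48, YEL074W at 0.79, NFG1 at 1.14 and PUN1 at 1.33. NCW2, a gene for a wall mannoprotein, lay at 3.51 and 3.31 on arrays 2 and 4 and at 3.09 and 3.29 on arrays 1 and 3. PRM5 was lower than NCW2 on arrays 2, 3 and 4 and higher on array 1, and the mean difference of -0.13 ± 0.17 (SD, n = 4 arrays) is within the spread. CRG1, a methyltransferase gene, averaged 2.76, below PRM5 on every array. YNL058C was nearest to MID2 at 0.15, then to MCH5 at 0.22, CIS3 at 0.27, YKE4 at 0.29 and HSP150 at 0.30. MID2 is a sensor gene of the cell wall integrity pathway, MCH5 codes for a riboflavin transporter, YKE4 for a zinc transporter, and CIS3 and HSP150 for wall proteins of the PIR family.

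MID2, like YNL058C, was higher on both arrays with Congo Red in Cy5, at 1.46 and 1.21 on arrays 2 and 4 and at 0.92 and 0.96 on arrays 1 and 3. All 5 nearest neighbours of YNL058C were higher with Congo Red in Cy5, by 0.39 to 0.83 log units, a direction that follows from their being chosen for likeness to YNL058C on these arrays.

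Most other targets of the wall-stress route were also high. Of the 21 tested targets of the cell wall integrity pathway 18 rose, 0 fell and 3 were not called by limma, with a median of 1.32 against -0.10 over all reading frames tested. At an unadjusted p below 0.05, 19 were higher and 0 lower, against 7.79% higher and 18.4% lower of all reading frames tested. This list also fixed the sign of the ratios and was chosen with earlier results of these data known. Its direction, its share of calls and its median are therefore no independent evidence. Its largest called means after NCW2 and CRG1 were those of YPS3, a cell surface protease gene, at 1.98 (adjusted p = 0.0478) and PUN1, a plasma membrane protein gene, at 1.87 (adjusted p = 0.00751). By mean ratio PRM5 was above each of these except NCW2, and YNL058C was below the median of the list. On array 4 YPS3, at 3.24, was above PRM5, at 3.08, while YPS3 lay between 1.33 and 1.79 on the other arrays. In the single-array fit with a dye term 19 targets were called, but 7 without array 2 and 11 without array 4.

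Fewer of the signalling components were called. Of 6 tested components of the pathway SLT2, the MAP kinase gene, rose by 1.30 (adjusted p = 0.0198), MID2 rose by 1.14 (adjusted p = 0.0186), 0 fell and 4 were not called, with a median of 0.25. At an unadjusted p below 0.05, 3 were higher and 0 lower, against 7.79% higher and 18.4% lower of all reading frames tested. SLT2 is also on the list of targets that fixed the sign of the ratios. RLM1, the gene of the factor that acts on PRM5, had values of 0.01 on array 4 and 0.05 on array 3 alone.

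**Figure D4:**
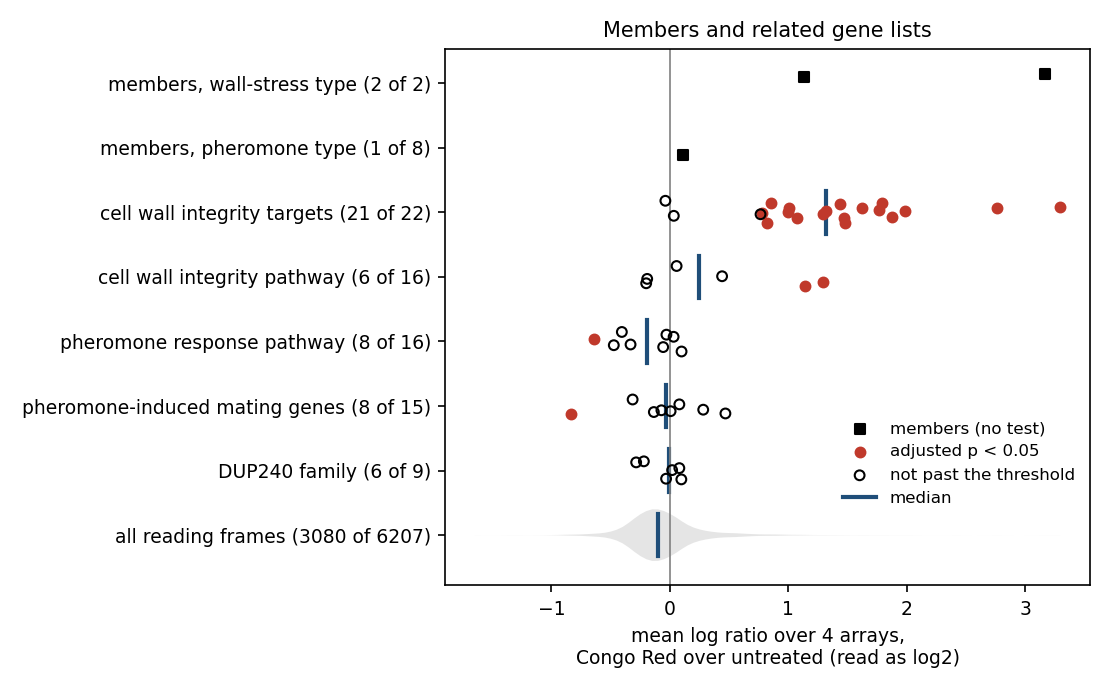
Mean log ratio over 4 arrays (horizontal axis, read as log2) of the members and of the genes of each related list that had 4 values, with all 3080 tested reading frames as a density at the bottom; red points passed an adjusted p of 0.05 by limma on culture means, and numbers in brackets are reading frames with 4 values of those in the table. The wall-stress members lie at 1.13 and 3.17 and PRM8 at 0.11, with list medians of 1.32 for the cell wall integrity targets and -0.03 for the pheromone-induced genes.

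Among mating genes outside the members, none of those tested had a mean near that of PRM5 or PRM10, the highest being CHS1, a chitin synthase gene, at 0.47. Of 8 tested genes that pheromone induces 0 rose, 1 fell and 7 were not called, with a median of -0.03 against -0.10 over all reading frames tested. The gene that fell was AGA2, an agglutinin subunit gene, at -0.83 (adjusted p = 0.0353), and at an unadjusted p below 0.05, 2 were higher and 2 lower, against 7.79% and 18.4% over all reading frames. FUS1, the cell fusion gene often used as a reporter of the pheromone pathway, lay at 0.24 and 0.21 on arrays 2 and 4 and at -0.16 and -0.27 on arrays 1 and 3. Its mean was 0.01 (adjusted p = 0.962), with a sign that followed the dye.

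Of 8 tested components of the pheromone response pathway 0 rose, 1 fell and 7 were not called, with a median of -0.19. STE2, the pheromone receptor gene, fell by 0.64 (adjusted p = 0.0498), and at an unadjusted p below 0.05, 0 were higher and 2 lower, a share near that over all reading frames (18.4% lower). STE12 lay at -0.12 and -0.13 on arrays 2 and 4 and at -0.43 on array 3. Of the MAP kinase genes, FUS3 lay at -0.49, -0.11 and 0.11 and KSS1 at -0.0026, 0.32 and 1.03 on arrays 2, 4 and 3, and neither was measured on array 1. The calls of STE2 and AGA2 were lost after centring each array on its median and, in the fit with a dye term, without array 2 or without array 4. That fit called 4 components without array 3 and 2 without array 1, and 2 of the genes that pheromone induces in each case. Of 5 tested MATa markers AGA2, MFA2 and STE2 fell and 2 were not called, with a median of -0.66. Over all reading frames tested 1.07% fell. AGA2 and STE2 are the same genes that fell in the lists above, so these counts overlap.

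The relatives of the unmeasured members gave little more. KCH1 had a single value of -0.21 on array 4, and BSC1, which lies near PRM7, was empty on all arrays.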

How the data were processed

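Per the labels, Cy5- and Cy3-labelled cDNA from total RNA was hybridised to 2-channel arrays. The authors deposited 1 log2 ratio (base assumed) per reading frame and array; no source used here gives their background correction, normalization, probe design or rule for empty cells. Of 6209 rows, 2 control rows were left out. Symbols came from the RefSeq gene table of assembly R64 (5654 of 6207 matched).

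Values were used as deposited. Which arrays share a culture is not stated, so arrays of opposite dye were averaged under both possible pairings. Each was fitted with limma 3.58.1 in R 4.3.3 (intercept only, eBayes), and the larger p kept, over the 3080 reading frames with 4 values. P-values were two-sided and adjusted by Benjamini-Hochberg (threshold 0.05). The dye effect came from limma on 4 arrays with a dye term. The fits were tested on simulated data with a dye effect but no effect shared by the arrays of a culture. That test therefore does not give error rates for these data. Array number limits precision. Members, lists and tests were chosen with earlier results of these data known. Named genes are the members, 5 nearest reading frames of PRM5 and of YNL058C, the most changed genes of each list and a few fixed relatives and regulators. Planned promoter and protein comparisons were not run; sequences were not used here. Alternatives were centring, scaling, either pairing, the dye term, leaving out arrays, turning arrays 2 and 4, and values on 3 arrays.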

Additional observations from a re-analysis of the deposited data

Results flagged for a closer look

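Of 57 members, nearest neighbours and list genes with 4 values, 3 had 1 array that stood far from the other 3 by Dixon's criterion. Chance alone would flag about 1 gene in 20. None of the 3 was a member. STE4, of the pheromone response pathway, lay at -1.02 on array 2. KDX1, a cell wall integrity target, lay at 1.95 on array 3, and DFP1, of the DUP240 family, at 0.27 on array 4.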

How the results depend on the processing

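The mean ratio of PRM5 was 3.29 after centring and 3.36 after centring and scaling, 3.13 to 3.21 without single arrays, and 0.012 with arrays 2 and 4 turned. The wall-stress minus pheromone-type difference was -0.37 with arrays 2 and 4 turned and 1.02 with PRM5 left out, an alternative chosen after seeing the data. The 80 calls became 32 after centring, 42 after centring and scaling together, 787 with arrays 1 and 4 as a culture and 0 with arrays 2 and 4 turned. The fit on single arrays with a dye term called 320; in that same fit there were 214 calls with values on at least 3 arrays, and 12 to 805 without single arrays. PRM5 and YNL058C both lost their call with arrays 2 and 4 turned, and YNL058C also after centring alone. Nothing is read from the calls of members in any of these fits, because the members were proposed on the same contrast. The pheromone pathway and pheromone-induced lists, with 1 call each, had 0 after centring, alone or with scaling, 3 and 2 when arrays 1 and 4 made up a culture, and, with the dye term, 0 to 4 and 0 to 2 without single arrays. The cell wall integrity targets had 19 calls with the dye term and 7 to 19 without single arrays. The dye effect, called for 493 reading frames, was called for 0 to 612 without single arrays, with 0 without array 2 and 1 without array 4. Each ratio sets the treated against the untreated part of a culture, but this does not make arrays of the same culture independent. The fits on single arrays had no term for culture, and which arrays share a culture is not stated. Their standard errors, p-values and counts of calls treat the arrays as independent. Signal over background cannot be seen in ratios.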
